A study of Homo sapiens with 6 samples.

Results

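RNA-seq of BLaER1-CTCF-mAID cells after 96 h of differentiation was compared between CTCF-depleted and control cultures, over every gene of the count table, and the genes that changed are described here by what they do. The members of the comparison are all 30017 genes of the table, of which 14758 had enough counts to be tested, in 4 of the 6 samples of the series. BLaER1 is a human B cell leukemia line that turns into macrophage-like cells when the myeloid transcription factor CEBPA is activated, and the subclone used carries an auxin-inducible degron on the CTCF protein. The 96 h control group was differentiated without auxin and the 96 h CTCF-depleted group with the auxin indole-3-acetic acid (IAA), with 2 biological replicates each, and 2 samples taken at 0 h, before induction and without IAA, serve as a reference level. The degron is present in the cells of all 3 groups, and all cells come from a single subclone of the line. A line without the degron that received IAA was not analysed here, so that effects of IAA and of CTCF loss cannot be told apart. The control samples held 11695516 and 11267539 counts, the CTCF-depleted samples 11001175 and 10911481, and the 0 h samples 9273470 and 12718780.

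CTCF is a zinc finger protein that binds a long DNA motif and halts the cohesin complex as it extrudes chromatin loops. Its sites mark many borders of contact domains, and a part of them lies in promoters, where the protein can bring distal regulatory elements near or keep them apart. Macrophages take up and digest particles, sense microbial products through receptors at the surface and in endosomes, and release cytokines and lipid mediators, and many of their genes are controlled from distal enhancers.

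The transcript of *CTCF* itself, the targeted gene, had 2048 and 1875 counts in control and 2062 and 2051 in depleted cells, or 177 and 189.9 CPM (counts scaled to a common library size). It was not called, with an edgeR log2 fold change of 0.10, a standard error of 0.05 and an adjusted p of 0.119, and since the degron removes protein, the transcript does not check the depletion. The labelled change of cell type was checked with marker genes. *LYZ*, which encodes lysozyme, had 3 and 6 counts at 0 h, 52779 and 47474 in the control replicates and 45020 and 45017 after depletion. *FCGR1A*, a high-affinity receptor for immunoglobulin G, was at 0 in both 0 h samples, with control counts of 296 and 295 and counts of 346 and 372 after depletion. The macrophage genes *CD14*, *CD68*, *CSF1R*, *FCGR2A*, *FCER1G*, *TYROBP* and *SPI1* were higher in each 96 h sample than in either 0 h sample too, and of the 10 macrophage markers *ITGAM* alone was called between the 96 h groups, although *CD14* passed at a log2 fold change of 0.64 without CTCF-depleted replicate 1. Among the 10 B cell markers, *DNTT*, the terminal transferase of early lymphocytes, went from 712 CPM at 0 h to 9.72 in the control and 13.5 after depletion, and *PAX5*, a factor of B cell identity, from 794 to 91.1 and 85.1 CPM. *MS4A1* and *EBF1* likewise stood far below their 0 h levels in both 96 h groups, whereas *CD79A* and *CD79B* remained at 69.4 and 30.9 CPM in control cells. Between the 96 h groups, 3 of the 10 B cell markers were called, *RAG1* and *VPREB1* lower and *CD22* higher, with values given further down. Of the list of other blood lineages, 35 genes are in the table, 9 could be tested, and with edgeR 0 were called, 3 of 9 had an unadjusted p below 0.05, all lower, and DESeq2 called 0. Its tested members summed to 69.8 and 71 CPM in the control and 64.4 and 66.6 CPM in the CTCF-depleted samples, and to 10.5 and 9.0 CPM at 0 h, with the most counts in *NKG7*, and the T cell gene *CD3D* and the globin gene *HBB* were at 0 throughout. In bulk samples, fewer cells of a type and less RNA per cell cannot be told apart.

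A gene was called when its adjusted p was below 0.01 and its absolute log2 fold change above 0.6, which gave 1038 lower genes, or 7.03% of those tested, and 798 higher genes, or 5.41%. These shares are the background against which the counts of each gene list are read. A minimum of 10 counts in every sample, tried as an alternative, leaves macrophage genes near 0 at 0 h untested, so that it lowers the counts of several lists. When tested genes were put in 4 bins of equal size by mean level, higher genes made up 7.45%, 7.75%, 4.28% and 2.14%, and lower genes 5.58%, 10.5%, 6.78% and 5.23% from the lowest to the highest. With 2 samples a group, the 96 h groups did not overlap in 67.9% of all genes tested, where chance alone gives 33.3%. Among the 1836 called genes, 1835 did not overlap, so that a lack of overlap says little of a single gene. Where it is stated below for a called gene, it adds no support to the call. Genes are named below mostly where the call held in every alternative fit that tested them, which was so for 147 of 233 lower and 124 of 171 higher genes that the naming rules gave. Protein-coding genes were lower in 7.55% and higher in 5.34% of 12483 cases, and long noncoding RNAs lower in 5.53% and higher in 8.29% of 651.

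Leaving out histone genes and those whose promoters are among 51 that the study used as viewpoints of chromatin contact assays, the smallest adjusted p among lower genes belonged to *N4BP2*, *FAM198B*, *SULF2*, *SETBP1*, *PRKCA*, *CIZ1*, *APP*, *FADS1* and *ZAK*. *SULF2*, an enzyme that trims sulfate groups from heparan sulfate chains, had 1403 and 1312 counts in the control replicates against 436 and 408 after depletion, and *PRKCA*, a classical protein kinase C, had 2246 and 2206 counts in control and 858 and 889 in depleted cells. *APP*, the amyloid precursor protein, had control counts of 3085 and 2896 and counts of 1346 and 1401 after depletion. *SULF2* fell from 123 to 39 CPM, with an edgeR log2 fold change of -1.65, a standard error of 0.08 and an adjusted p of 1.2e-25, and *PRKCA* fell from 201 to 80.7 CPM, with an edgeR log2 fold change of -1.32, a standard error of 0.06 and an adjusted p of 1.57e-25. *SETBP1*, which encodes a protein that binds SET, fell by 2.11 on the log2 scale, and *CIZ1*, a nuclear matrix protein with a role at the start of DNA replication, fell from 102 to 33.8 CPM. Several of the lower genes had been present before differentiation, such as *N4BP2* at 154 CPM at 0 h, and others were near absent then, such as *SULF2* at 0.52 CPM. The higher genes with the smallest adjusted p were *EGR1*, *GPRIN3*, *ABLIM1*, *SPTLC2*, *OLFML2A*, *AHI1*, *PLK2*, *ZNF185*, *PRAME*, *CALB2*, *NBPF12*, *STAG1*, *APBB2*, *ABCA5* and *TMCO6*. *ABLIM1*, an actin-binding LIM protein, had 64 and 68 counts in the control replicates against 647 and 684 after depletion, and *SPTLC2*, a subunit of the enzyme that starts sphingolipid synthesis, rose from 131 to 335 CPM. *AHI1*, a protein of the base of the primary cilium, had 314 and 310 counts in control and 1139 and 1216 in depleted cells. *NBPF12* belongs to a family of near-identical copies, so that its counts are uncertain.

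Several genes had all or nearly all of their 96 h counts in a single group. *PRAME*, a cancer-testis antigen that is silent in most adult tissues, had 0 counts in both control and both 0 h samples and 307 and 289 after depletion, which is at least 203-fold higher when the control is set to the limit that a count of 0 allows, 3 counts over both of its samples. *CALB2*, the calcium-binding protein calretinin, had control counts of 0 and 1 and counts of 255 and 300 after depletion, a ratio of 567 with an exact 95% counting interval from 101 to 22439.5. *SYCE3*, a protein of the synaptonemal complex of meiosis, had 1 and 0 counts in the control replicates against 87 and 57 after depletion, a ratio of 147 (interval 26 to 5852). *VPS37D* and *LOC101928764* were at 0 in both control samples and at least 14-fold and 9.2-fold higher after depletion. In the other direction, *CLSTN2*, a calsyntenin, and *ISM1*, a secreted protein, were at 0 in both CTCF-depleted samples and at least 33.6-fold and 11.4-fold lower than in control, where *CLSTN2* had 53 and 50 counts. *BHLHE41*, a repressor of the basic helix-loop-helix family, had 20 and 25 counts in control and 1 and 0 in depleted cells, a ratio of 44 (interval 7.51 to 1778), and *HES1*, a repressor downstream of Notch receptors, had control counts of 132 and 133 and counts of 2 and 8 after depletion. The intervals and limits cover counting error only, since reads copied by PCR were counted without molecular identifiers. *MIR3648* had the lowest fitted value, but its 1140 and 19 counts in the control replicates against 0 and 1 after depletion rest mainly on a single sample, and DESeq2 did not call it (adjusted p = 0.0121).

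**Figure D1:**
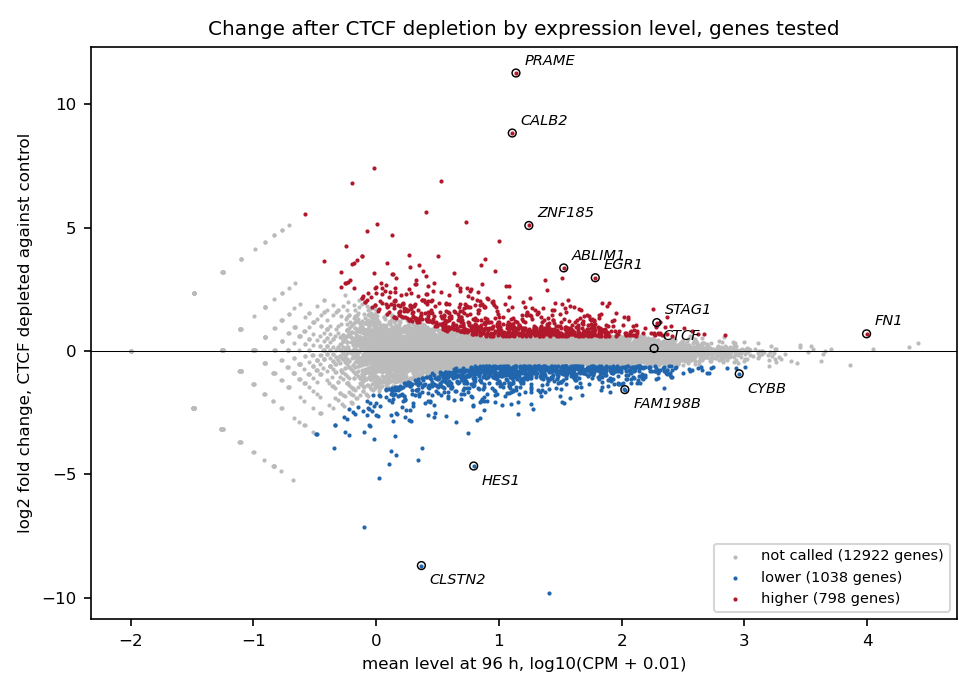
Log2 fold change of CTCF-depleted against control cells (vertical axis) by mean level at 96 h, on a log10 scale of CPM with 0.01 added (horizontal axis), for the 14758 genes tested. Blue points are the 1038 lower and red points the 798 higher genes, and the named genes are circled; *PRAME* and *CALB2* have the highest fold changes of all points, while *CTCF* lies near 0 at 0.10.

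Promoters were searched for the core of the CTCF motif, 12 letters long, on both strands, from 250 bases before to 50 after the gene start. A match was found in 144 of the 27305 promoters of RefSeq for GRCh38.p14 (0.527%), and in 6 of 765 lower (0.784%), 3 of 568 higher (0.528%) and 56 of 9418 genes that were not called (0.595%), counting genes with an entry. At an absolute log2 fold change above 1 it was found in 4 of 315 lower (1.27%) and 3 of 277 higher (1.08%), and above 2 in 2 of 59 lower (3.39%) and 1 of 69 higher (1.45%) genes. The counts with a match are small, whether the shares differ was not tested, and a gene with no match in this window may have CTCF sites elsewhere. Among the few genes with a match are *PRAME* and *STAG1*, which stand among the 15 highest-ranked higher genes, and *CENPF*, a kinetochore protein of dividing cells that fell from 215 to 122 CPM. Their promoters are shown because they join a match with a called change, and capitals mark the core of the motif, which starts 45 bases before the gene start in *PRAME*, 132 before it in *CENPF*, and 40 before and 18 after it in *STAG1*. The regions are chr22:22559216-22559515, minus strand, for *PRAME*, chr3:136752329-136752628, minus strand, for *STAG1*, and chr1:214602945-214603244, plus strand, for *CENPF*.
PRAME: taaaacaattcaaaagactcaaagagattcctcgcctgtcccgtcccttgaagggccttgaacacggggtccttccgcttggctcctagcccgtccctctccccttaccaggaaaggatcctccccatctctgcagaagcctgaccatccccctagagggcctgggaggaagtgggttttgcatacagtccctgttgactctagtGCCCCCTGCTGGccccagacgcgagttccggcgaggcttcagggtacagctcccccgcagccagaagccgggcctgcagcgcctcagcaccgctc
STAG1: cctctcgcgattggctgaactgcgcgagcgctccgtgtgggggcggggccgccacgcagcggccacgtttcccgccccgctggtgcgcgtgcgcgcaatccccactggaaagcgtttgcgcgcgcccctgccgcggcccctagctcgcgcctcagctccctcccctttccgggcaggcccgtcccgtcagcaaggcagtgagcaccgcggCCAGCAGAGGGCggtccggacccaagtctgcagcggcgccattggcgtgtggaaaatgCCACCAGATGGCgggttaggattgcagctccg
CENPF: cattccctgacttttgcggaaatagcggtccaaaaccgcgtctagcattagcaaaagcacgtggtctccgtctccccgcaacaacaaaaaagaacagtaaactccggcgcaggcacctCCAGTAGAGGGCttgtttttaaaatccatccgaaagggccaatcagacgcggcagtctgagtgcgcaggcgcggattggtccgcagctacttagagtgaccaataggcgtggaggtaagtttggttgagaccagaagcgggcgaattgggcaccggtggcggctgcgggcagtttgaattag

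*STAG1* encodes a subunit of the cohesin complex, and had 1326 and 1330 counts in the control replicates against 2810 and 2948 after depletion. All CTCF-depleted values were above all control values, at 120.1 ± 4.34 and 266 ± 8.05 CPM (SD, n = 2 each), with an edgeR log2 fold change of 1.15, a standard error of 0.05 and an adjusted p of 9.52e-26. Its paralog *STAG2* did not pass the thresholds at 434 and 405 CPM, nor did *RAD21* and *NIPBL*, the cleavable ring subunit and the loader, and *STAG3*, the meiotic paralog, fell from 6.64 to 2.17 CPM. Of the 16 tested genes of cohesin and its regulators, 1 was lower, 1 higher and 14 neither, beside a background of 7.03% and 5.41%. The list of CTCF and other architectural factors had 2 lower and 0 higher of 24 members, the lower ones being *TOP2A* and *HMGB2*, whose products are abundant in dividing cells.

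Genes that respond to growth factor signals within minutes, known as immediate early genes, were higher in 8 and lower in 2 of 25 tested cases, or 32% and 8.0% beside 5.41% and 7.03% over all genes, with a median log2 fold change of 0.13 against -0.03 over all genes tested. *EGR1*, a zinc finger transcription factor, had 157 and 149 counts in control and 1215 and 1124 in depleted cells, with all CTCF-depleted values above the control. It measured 13.8 ± 0.0409 and 108 ± 6.33 CPM (SD, n = 2 each), with an edgeR log2 fold change of 2.96, a standard error of 0.09 and an adjusted p of 8.81e-33, and 161 CPM at 0 h, so that CTCF-depleted cells stood between the control and the starting cells. *PLK2*, a polo-like kinase, had control counts of 387 and 337 and counts of 1427 and 1285 after depletion, and *EGR2*, a factor that also acts in macrophage differentiation, had 58 and 47 counts in the control replicates against 206 and 173 after depletion. Neither gene overlapped between the groups, and unlike *EGR1*, *EGR2* was low at 0 h, at 0.905 CPM. *FOSL1* rose from 5.69 to 19.6 CPM, *JUN* rose from 112 to 186 CPM and *KLF6* rose from 90.9 to 163 CPM, the former pair being subunits of the AP-1 transcription factor. *JUNB* and *KLF10* moved the other way, *JUNB* from 194 to 94.6 CPM and *KLF10* from 199 to 93.1 CPM, so that the AP-1 and KLF families had members on both sides. The member with the most counts, *FOSL2*, did not pass at 1749 and 1865 CPM.

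The promoter of *EGR1* is shown because it holds the CArG box, the 10-letter word that serum response factor binds at immediate early genes. The box was found in 2 of 19 promoters of the list with an entry and in 1.29% of all promoters. By call, it was found in 14 of 765 lower (1.83%), 6 of 568 higher (1.06%) and 87 of 9418 genes not called (0.924%). Whether these shares differ was not tested. Capitals mark the 2 matches in *EGR1*, which start 105 and 83 bases before the gene start, in the region chr5:138465229-138465528, plus strand, of RefSeq GRCh38.p14. The word reads alike on both strands, and a match is a description of the letters.
EGR1: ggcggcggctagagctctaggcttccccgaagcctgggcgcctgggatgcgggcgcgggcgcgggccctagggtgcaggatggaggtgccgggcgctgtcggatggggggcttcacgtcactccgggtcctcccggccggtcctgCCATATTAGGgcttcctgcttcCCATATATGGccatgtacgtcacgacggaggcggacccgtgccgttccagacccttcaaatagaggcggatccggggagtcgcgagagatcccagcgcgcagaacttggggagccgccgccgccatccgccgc

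Genes induced by the kinase ERK, most of which dampen its own pathway, were called in 2 of 16 cases, both higher. *SPRY2* and *SPRY4*, Sprouty proteins that restrain receptor signalling, had 279 and 190 counts in control and 733 and 744 in depleted cells and control counts of 359 and 305 and counts of 613 and 659 after depletion, respectively. The groups did not overlap in either gene, and *DUSP6*, a phosphatase of ERK, did not pass at 567 and 658 CPM. The kinase cascade itself had 2 lower and 0 higher of 22 members, with *NF1* and *GRB2* among those that did not pass. Of the TGF-beta pathway, 2 were lower, 0 higher and 20 neither of 22 tested, with a median of -0.21, and *SMAD7*, an inhibitor of the receptors, fell from 59.2 to 34.3 CPM. In the WNT and Notch pathways, 3 were lower, 0 higher and 24 neither of 27, and besides *HES1*, *MAML2*, a coactivator of Notch, fell from 61.8 to 22.5 CPM. A further list holds the aryl hydrocarbon receptor, which some indole compounds activate, its partner and its targets. The receptor itself was at 0 in all 6 samples, but so was *EIF4A1*, a translation factor that cells need, so that a 0 throughout, as for *CD3D* and *HBB* too, can come from the annotation or the counting. Whether the receptor is present cannot be told, and the list can say little on the indole used as inducer. Of its members, 9 are in the table, 3 could be tested, 0 were called by edgeR, 1 of 3 had an unadjusted p below 0.05, and DESeq2 called 0. *TIPARP* had 418 and 422 counts in the control replicates against 617 and 583 after depletion, a log2 fold change of 0.55 (edgeR, adjusted p = 7.23e-08), short of the fold change threshold, which it passed at 0.62 without control replicate 2 and at 0.62 without CTCF-depleted replicate 2, and *CYP1A1*, a classical target, had at most 5 counts in any sample. Of the kinase cascade, lower members numbered 1 with DESeq2, 0 when at least 10 counts were required in every sample, and 0 to 2 when single replicates were left out. Of the TGF-beta pathway, lower members numbered 1 with DESeq2, in a fit of the 96 h samples alone or when at least 10 counts were required in every sample, and 1 to 3 when single replicates were left out. Of the WNT and Notch pathways, higher members numbered 1 without the filter on low counts or in a fit of the 96 h samples alone, and 0 to 2 when single replicates were left out.

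**Figure D2:**
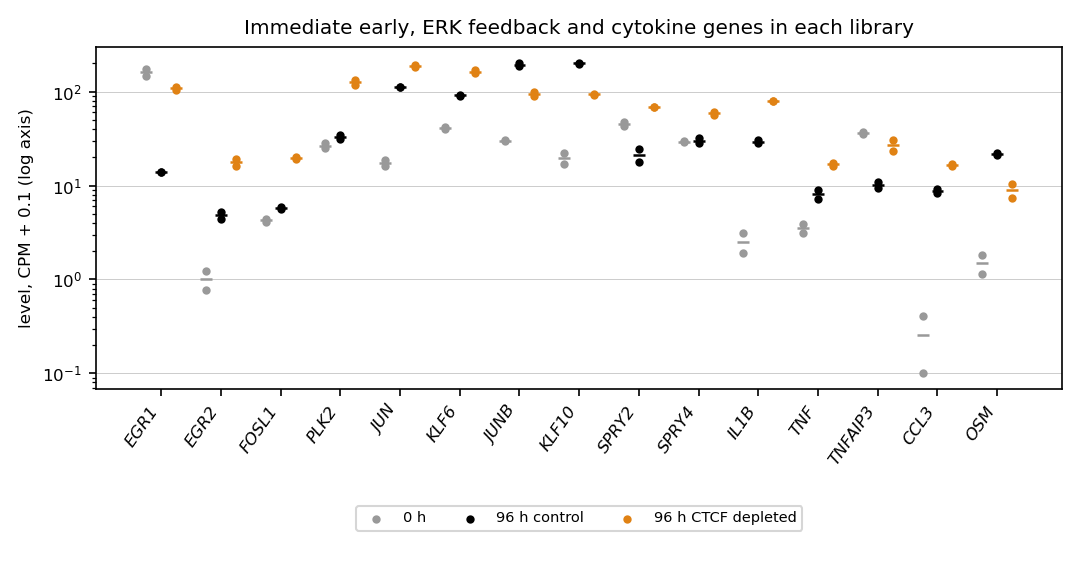
Level of 15 immediate early, ERK feedback and cytokine genes in each library, in CPM with 0.1 added on a log axis; each point is a library and short lines are means of 2 libraries, for 0 h (grey), 96 h control (black) and 96 h CTCF-depleted cells (orange). *EGR1* in CTCF-depleted cells, at 108 CPM, lies between the control and 0 h, while *JUNB*, *KLF10* and *OSM* are lower than in control.

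Pattern recognition receptors, with which macrophages sense microbes, were called in both directions. Among 22 tested Toll-like receptors and adaptors, 6 were lower, 1 higher and 15 neither, with a median log2 fold change of 0.14. *TLR6* and *TLR1*, which pair with TLR2 to detect bacterial lipopeptides and are neighbours on chromosome 4, had 352 and 311 counts in control and 89 and 57 in depleted cells and control counts of 355 and 333 and counts of 131 and 93 after depletion, respectively. Neither gene overlapped between groups, and they are paralogs of closely similar sequence, so that reads can be split between them. *IRAK2*, a kinase of the same pathway, fell from 28.9 to 14.2 CPM, while *TLR5*, the receptor for flagellin, rose from 8.07 to 15.5 CPM. *TLR4*, which detects lipopolysaccharide, had a log2 fold change of 0.37, below the fold change threshold, as did the adaptor *MYD88* with 0.39. Of Toll-like receptors and adaptors, lower members numbered 3 without CTCF-depleted replicate 1, and higher members numbered 0 when at least 10 counts were required in every sample, and 2 without CTCF-depleted replicate 1.

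Scavenger and lectin receptors, which bind modified lipoproteins, sugars and debris, were lower in 8 and higher in 2 of 22 tested genes, with a median of -0.43. *CD36*, a receptor for oxidised lipoproteins and fatty acids, had 516 and 529 counts in the control replicates against 195 and 157 after depletion, and *MRC1*, the mannose receptor, had 402 and 376 counts in control and 151 and 152 in depleted cells. *OLR1*, another receptor for oxidised lipoproteins, fell from 55.9 to 26.1 CPM, and like *CD36* and *MRC1* it was at or below 0.342 CPM at 0 h. *CD163L1* and *CLEC4A* rose, from 8.95 to 22.1 CPM and from 1.53 to 5.91 CPM. *STAB1* and *SIRPA*, the members with the most counts, did not pass, at log2 fold changes of -0.15 and 0.08. Of scavenger and lectin receptors, lower members numbered 4 with DESeq2, without control replicate 1 or without control replicate 2, 5 without the filter on low counts, 0 when at least 10 counts were required in every sample, and 3 without CTCF-depleted replicate 2, and higher members numbered 1 when at least 10 counts were required in every sample.

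Of the phagocyte NADPH oxidase, which makes superoxide, 1 of 7 tested subunits was lower. This was *CYBB*, the catalytic membrane subunit, with control counts of 13334 and 12933 and counts of 7000 and 6511 after depletion. It measured 1187 ± 14.8 and 624 ± 34.2 CPM (SD, n = 2 each), with an edgeR log2 fold change of -0.93, a standard error of 0.05 and an adjusted p of 2.53e-24, and the groups did not overlap. Its membrane partner *CYBA* had a log2 fold change of 0.15 and did not pass. Of oxidase subunits, lower members numbered 0 when at least 10 counts were required in every sample. Adhesion molecules of leukocytes were 1 lower and 4 higher among 17. *ITGAM*, the alpha chain of complement receptor CR3, had 1362 and 1468 counts in the control replicates against 3125 and 3039 after depletion, with an edgeR log2 fold change of 1.15, a standard error of 0.06 and an adjusted p of 1.43e-24, whereas its beta chain *ITGB2* did not pass at 0.10. *SELPLG*, a ligand of selectins, had 384 and 377 counts in control and 744 and 811 in depleted cells, without overlap. Complement genes were higher in 5 and lower in 1 of 16 cases, with properdin (*CFP*) from 32.2 to 62.1 CPM and factor D (*CFD*) from 36.4 to 67.1 CPM. Both act as activators of the alternative pathway. Of leukocyte integrins, lower members numbered 0 when at least 10 counts were required in every sample, and higher members numbered 1 when at least 10 counts were required in every sample. Of complement genes, lower members numbered 0 with DESeq2 or when at least 10 counts were required in every sample, and 0 to 1 when single replicates were left out, and higher members numbered 1 when at least 10 counts were required in every sample.

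Class II antigen presentation had 3 lower and 6 higher genes of 21, with a median of 0.32. *CD86*, a costimulatory ligand for T cells, had control counts of 456 and 472 and counts of 818 and 815 after depletion, and *CD40*, a receptor for T cell help, rose from 14.9 to 25.8 CPM. *CD83* fell from 10.2 to 4.2 CPM, *LGMN*, a lysosomal protease, fell from 45.2 to 24.1 CPM and *RFXAP*, a subunit of the factor that binds class II promoters, fell from 41.8 to 25.2 CPM, so that genes of the pathway moved both ways. The abundant chains *CD74* and *HLA-DRA* had log2 fold changes of 0.31 and 0.23 and did not pass, and counts of HLA genes are uncertain because reads can be split between similar copies. Of class II genes, higher members numbered 3 with DESeq2 or without control replicate 1, and 2 without CTCF-depleted replicate 2. Class I presentation had 0 called of 20 genes with edgeR and 0 with DESeq2, 9 of 20 had an unadjusted p below 0.05, all of them lower, 19 of 20 were below 0, the median was -0.14, and *HLA-B* stood at a log2 fold change of -0.46. Of class I genes, lower members numbered 0 to 1 when single replicates were left out.

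Among 15 tested inflammatory cytokines and chemokines, 2 were lower, 3 higher and 10 neither. *IL1B*, interleukin 1 beta, had 342 and 307 counts in the control replicates against 858 and 858 after depletion, and *TNF*, tumour necrosis factor, had 80 and 95 counts in control and 175 and 187 in depleted cells. The groups did not overlap in either, and *CCL3*, a chemokine for monocytes, rose from 8.71 to 16.4 CPM, whereas *OSM*, a cytokine of the interleukin 6 family, fell from 21.6 to 8.82 CPM. *TNFAIP3*, which restrains NF-kB signalling, was the higher gene of its pathway, with control counts of 106 and 116 and counts of 328 and 249 after depletion, while *BCL3* fell from 87.7 to 47.2 CPM and *NFKBID* fell from 77.5 to 40.1 CPM, both nuclear proteins of the IkB family, among 23 tested. Genes for leukotrienes and prostanoids, lipid mediators made from arachidonic acid, were higher in 5 and lower in 0 of 14 cases. *CYSLTR1*, a receptor for cysteinyl leukotrienes, had 10 and 16 counts in the control replicates against 141 and 143 after depletion, and its relative *CYSLTR2* had 3 and 5 counts in control and 43 and 46 in depleted cells. All values after depletion were above all control values, and *PTGS1*, the constitutive cyclooxygenase, rose from 28.3 to 44.7 CPM and *TBXAS1*, thromboxane synthase, rose from 29.5 to 47.8 CPM. *LTA4H* and *ALOX5AP*, the members with the most counts, did not pass at log2 fold changes of -0.40 and 0.31. Of the cytokines and chemokines, lower members numbered 1 with DESeq2 or when at least 10 counts were required in every sample, and 1 to 2 when single replicates were left out. Of leukotriene and prostanoid genes, lower members numbered 1 without CTCF-depleted replicate 1, and higher members numbered 3 when at least 10 counts were required in every sample.

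Chemoattractant receptors had 3 lower and 2 higher of 18 members. *CMKLR1*, the chemerin receptor, had control counts of 132 and 123 and counts of 19 and 17 after depletion. It was at 0 in the 0 h samples and separated the 96 h groups. *CXCR4*, a receptor that holds cells in the bone marrow, fell from 237 to 137 CPM, and stood at 130.2 CPM at 0 h. Receptors for cytokines and growth factors were lower in 5 and higher in 1 of 28 cases, with *IL6ST*, the shared chain of the interleukin 6 family, rising from 202 to 309 CPM, and *CSF1R* not passing at -0.30. Among the lower ones, *IL7R* fell from 91.2 to 49.6 CPM and *IL10RA* from 46.7 to 20.4 CPM. Of chemoattractant receptors, lower members numbered 1 when at least 10 counts were required in every sample, and higher members numbered 0 with DESeq2 or when at least 10 counts were required in every sample, and 0 to 1 when single replicates were left out. Of cytokine and growth factor receptors, lower members numbered 3 when at least 10 counts were required in every sample or without CTCF-depleted replicate 2, and 2 without control replicate 1, and higher members numbered 2 without CTCF-depleted replicate 1. Interferon-stimulated genes had 3 lower, 3 higher and 39 neither of 45. The shares were 6.67% lower and 6.67% higher, near the 7.03% and 5.41% over all genes. *IRF1* and *IFITM2* fell and *BST2* and *IFIT5* rose. Of 44 genes for actin, podosomes and phagocytosis, 1 was lower, 4 higher and 39 neither, with *ABLIM1*, *CAPG* and *VCL* among the higher, and *ACTB* at -0.43. Of the actin and phagocytosis genes, lower members numbered 0 with DESeq2 or when at least 10 counts were required in every sample, and 0 to 1 when single replicates were left out. Genes with a CD-numbered symbol had 4 lower and 12 higher of 63, or 6.35% and 19%, and of these *CD300E* fell from 43.2 to 15.4 CPM and *CD300LF* and *CD300C* rose from 17.5 to 38.4 CPM and from 24 to 46.8 CPM. Of CD-numbered symbols, lower members numbered 1 when at least 10 counts were required in every sample, and higher members numbered 5 when at least 10 counts were required in every sample.

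**Figure D3:**
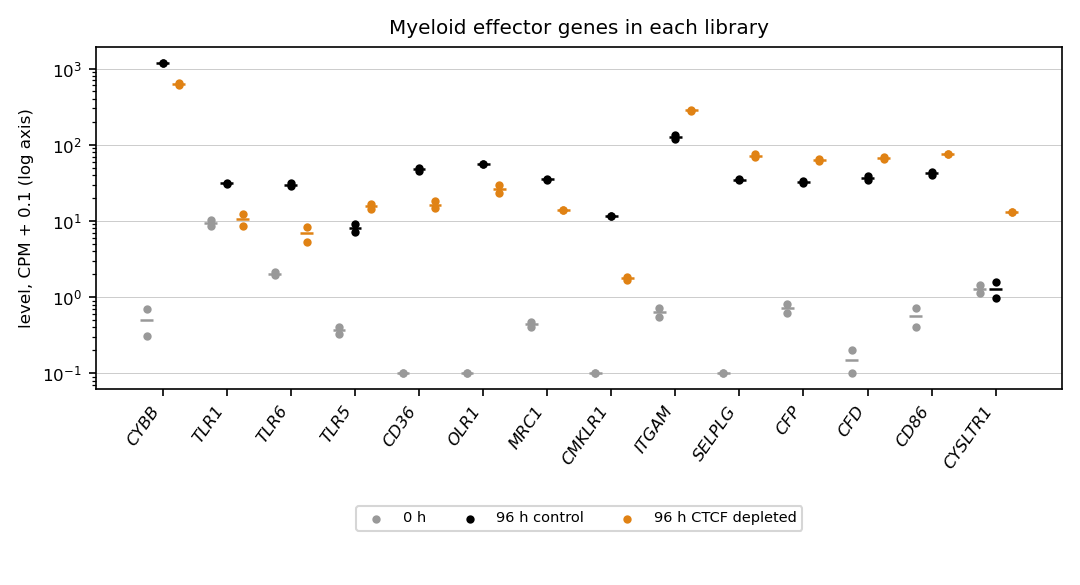
Level of 14 myeloid effector genes in each library, in CPM with 0.1 added on a log axis; points are libraries and short lines means of 2 libraries, for 0 h (grey), 96 h control (black) and 96 h CTCF-depleted cells (orange). Both orange points lie below both black points from *CYBB* to *TLR6* and from *CD36* to *CMKLR1*, and above them for *TLR5* and from *ITGAM* to *CYSLTR1*.

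Transcription factors of the myeloid lineage were called on both sides, with 4 lower, 7 higher and 22 neither of 33 tested. *BHLHE40*, a repressor induced in activated macrophages, had 2155 and 2049 counts in the control replicates against 858 and 791 after depletion, and *CEBPD*, a C/EBP factor of inflammation, had 434 and 419 counts in control and 148 and 135 in depleted cells. Depleted and control values did not overlap in either. *TFEC*, a relative of MITF found in macrophages, rose from 25.7 to 57.6 CPM. *NR1H3*, the sterol-sensing receptor LXR alpha, rose from 7.63 to 15.6 CPM. The factors that lead the lineage, *SPI1* and *CEBPA*, had log2 fold changes of -0.25 and 0.04 and did not pass, nor did *ZEB2* at 0.07, and counts of *CEBPA* may hold those of the activated transgene. Among 32 B cell and lymphoid factors, 4 were lower, 0 higher and 28 neither, with *AFF3* from 145 to 73.6 CPM and *ID3*, an inhibitor of helix-loop-helix factors, from 70.4 to 35.1 CPM. *IKZF2*, an Ikaros family member, fell from 27.9 to 16.3 CPM, and all 3 genes stood at or above 34.3 CPM at 0 h. Of myeloid factors, lower members numbered 1 when at least 10 counts were required in every sample.

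Genes of the B cell receptor and the B cell surface were lower in 4 and higher in 5 of 30 cases. *RAG1*, which cuts the receptor genes for recombination, had 6245 and 8424 counts at 0 h, 93 and 80 in the control replicates and 26 and 18 after depletion. *VPREB1*, a part of the surrogate light chain, had control counts of 147 and 121 and counts of 73 and 68 after depletion. *CD22*, an inhibitory coreceptor, went the other way, from 182 CPM at 0 h to 34.8 ± 3.29 and 96.6 ± 1.85 CPM (SD, n = 2 each), with an edgeR log2 fold change of 1.47, a standard error of 0.07 and an adjusted p of 3.04e-24. *CD37* and *CD180*, which B cells and myeloid cells share, rose from 16.9 to 33 CPM and from 11.2 to 21.5 CPM, and stood at 0.952 and 1.21 CPM at 0 h. The kinase *LYN*, the member with the most counts, did not pass at a log2 fold change of 0.07. Of B cell receptor and surface genes, higher members numbered 2 when at least 10 counts were required in every sample.

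**Figure D4:**
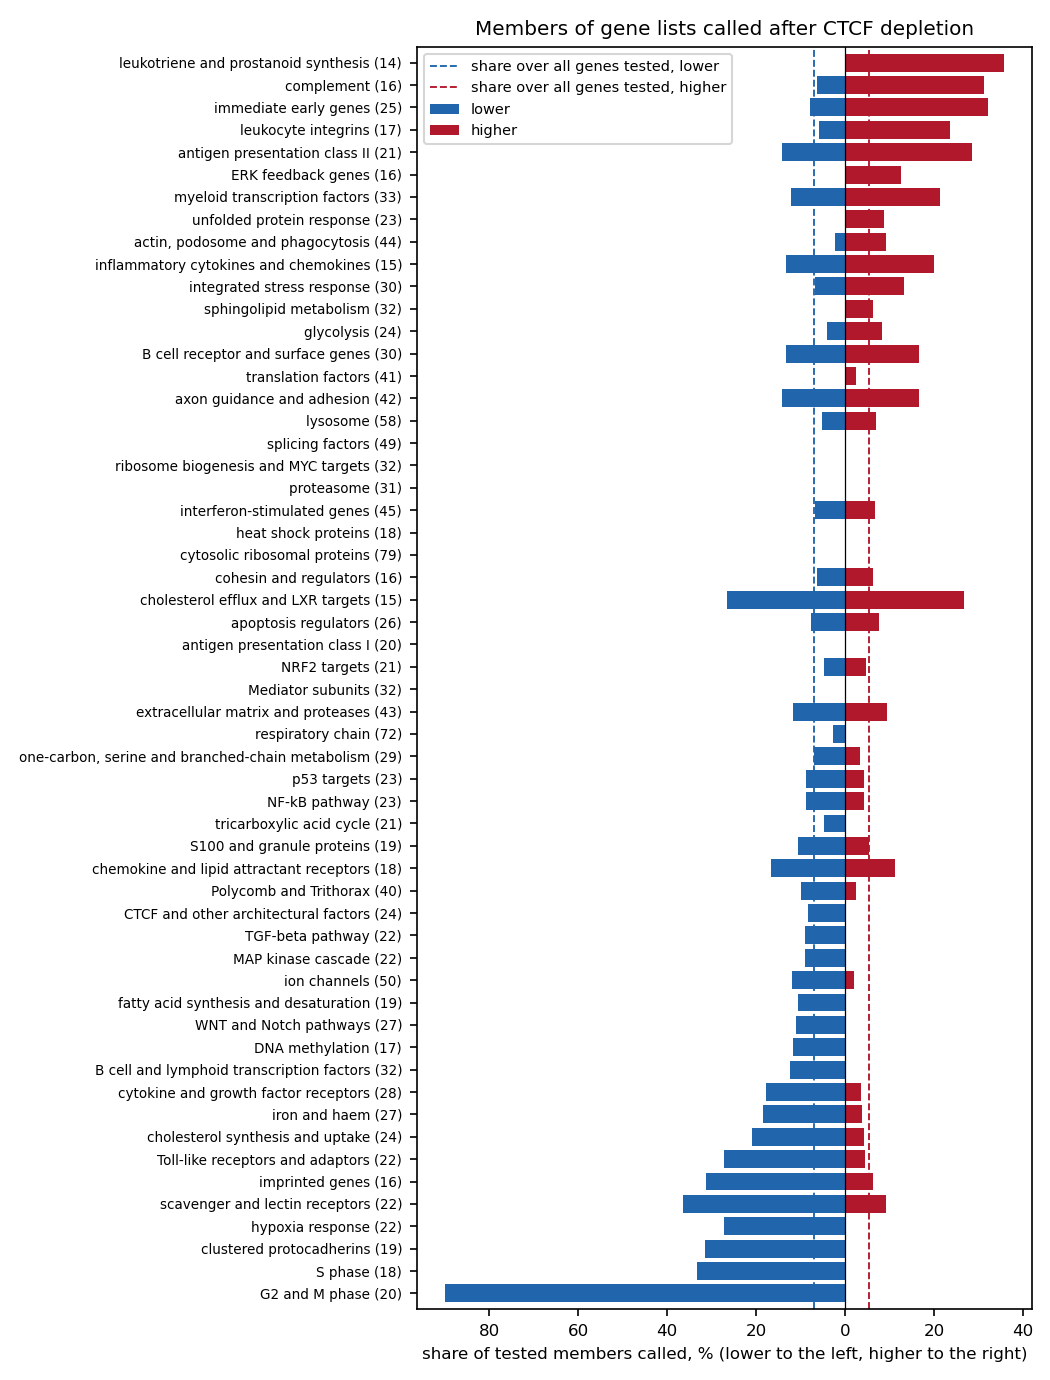
Share of tested members called lower (blue, to the left) or higher (red, to the right) for each gene list with at least 10 tested members, whose number is in parentheses; dashed lines give the shares over all genes tested, 7.03% and 5.41%. Leukotriene and prostanoid genes extend to the right with 5 higher of 14, and the scavenger and lectin receptors to the left with 8 lower of 22, while lists of the gene expression machinery show few or no bars.

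Clustered protocadherins are adhesion molecules, and some of their alternative promoters are chosen through CTCF sites in neurons. They were mostly too low to test, and of 53 in the table, 19 could be tested, 6 were lower and 0 higher, with a median of -0.69. In the promoter window searched above, the core of the CTCF motif was found in 0 of 17 promoters of the list with an entry. Sites outside that window were not searched, and whether CTCF sites act on these genes here was not tested. *PCDHGC5* had 187 and 199 counts in the control replicates against 92 and 94 after depletion and *PCDHGA12* had 50 and 57 counts in control and 10 and 13 in depleted cells, without overlap. The genes of a cluster share exons, so that these counts are uncertain. Of protocadherins, lower members numbered 3 with DESeq2, when at least 10 counts were required in every sample or without CTCF-depleted replicate 1. Imprinted genes, several of which are controlled by CTCF sites at their control regions, were lower in 5 and higher in 1 of 16 tested cases. The table holds 29 of them, and *H19*, *IGF2* and *MEG3*, with 0 counts in all samples, and *DLK1*, with at most 1, could not be tested. Of imprinted genes, lower members numbered 3 when at least 10 counts were required in every sample or without control replicate 2. *KCNQ1OT1*, a long noncoding RNA that silences its neighbours in cis, had control counts of 6939 and 7267 and counts of 3730 and 3795 after depletion. *CDKN1C*, a cell cycle inhibitor in the same domain, had 402 and 401 counts in the control replicates against 215 and 190 after depletion, and *PEG10*, a gene derived from a retrotransposon, had 35 and 40 counts in control and 2 and 8 in depleted cells. The higher gene, *ZDBF2*, went from 15.8 to 29.6 CPM. Polycomb and Trithorax genes had 4 lower and 1 higher of 40, with *EED*, a core subunit of Polycomb repressive complex 2, rising from 37.4 to 69.7 CPM and *CBX2* and *PHF19* falling. Of Polycomb and Trithorax genes, lower members numbered 2 without control replicate 2 or without CTCF-depleted replicate 1, and higher members numbered 2 without the filter on low counts, in a fit of the 96 h samples alone, with a replicate block, when at least 10 counts were required in every sample or without CTCF-depleted replicate 1. Genes of DNA methylation had 2 lower of 17, among them *UHRF1*, which guides the maintenance methyltransferase to replicated DNA, from 123 to 61.6 CPM. *DNMT1* and *TET2* did not pass, at log2 fold changes of -0.40 and 0.08. Of DNA methylation genes, lower members numbered 1 with DESeq2, and 1 to 2 when single replicates were left out.

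Among lipid genes, cholesterol synthesis and uptake had 5 lower and 1 higher of 24 members, with 22 below 0 and a median log2 fold change of -0.40. *FDFT1*, squalene synthase, had control counts of 2740 and 2723 and counts of 1590 and 1569 after depletion, and *INSIG1*, which retains the regulator of the pathway in the endoplasmic reticulum, had 1273 and 1166 counts in the control replicates against 654 and 650 after depletion. Neither overlapped between the groups, and *CYP51A1*, lanosterol demethylase, fell from 62.7 to 36.9 CPM. *SREBF2*, the transcription factor of the pathway, and *SQLE* had log2 fold changes of -0.55 and -0.56, short of the threshold. Fatty acid synthesis had 2 lower of 19, led by *FADS1*, a desaturase for long polyunsaturated chains, with 2053 and 2088 counts in control and 872 and 907 in depleted cells, without overlap, and *FASN* was at -0.52. Cholesterol efflux and targets of LXR were split, with 4 lower, 4 higher and 7 neither of 15. *ABCA1*, which exports cholesterol, had control counts of 7441 and 7168 and counts of 4506 and 4378 after depletion, and *LIPA*, the lysosomal acid lipase, had 2250 and 2146 counts in the control replicates against 1058 and 984 after depletion. Both fell, whereas *NPC1*, which moves cholesterol out of lysosomes, rose from 68.3 to 121 CPM, and *APOE*, an apolipoprotein, had 4 and 15 counts in control and 50 and 43 in depleted cells. *MYLIP*, a ubiquitin ligase that LXR induces, fell from 153 to 70.0 CPM. Sphingolipid metabolism had 2 higher and 0 lower of 32 members, with *SPTLC2* as the member with the smallest adjusted p. Of cholesterol synthesis genes, higher members numbered 0 with DESeq2. Of fatty acid genes, lower members numbered 1 without CTCF-depleted replicate 1. Of sphingolipid genes, higher members numbered 1 with DESeq2, without the filter on low counts, with a replicate block or when at least 10 counts were required in every sample, and 1 to 2 when single replicates were left out.

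Iron and haem genes were lower in 5 and higher in 1 of 27 cases. *HMOX1*, which breaks down haem, had control counts of 594 and 530 and counts of 212 and 219 after depletion, and *ACO1*, which also serves as an iron-sensing RNA-binding protein, had 350 and 391 counts in the control replicates against 120 and 120 after depletion. *SLC25A37*, the mitochondrial iron importer, had 5133 and 4989 counts in control and 2861 and 2752 in depleted cells, while the ferritin chains *FTH1* and *FTL* were at -0.14 and 0.09. Genes of the hypoxia response were lower in 6 and higher in 0 of 22 cases, with *PDK1*, which turns pyruvate away from mitochondria, from 52.8 to 27.8 CPM, and *HIF1A* and *VEGFA* not passing at -0.16 and -0.24. Of iron and haem genes, lower members numbered 3 when at least 10 counts were required in every sample, and higher members numbered 2 without CTCF-depleted replicate 2. Of hypoxia genes, lower members numbered 3 with DESeq2 or without CTCF-depleted replicate 2. Glycolysis had 1 lower, 2 higher and 21 neither of 24, with a median of -0.24, and *ALDOC* rose from 14.4 to 36 CPM while *GAPDH* was at -0.41. In the integrated stress response, 2 were lower, 4 higher and 24 neither of 30, and the higher genes included *ASNS*, asparagine synthetase, from 20.1 to 35.5 CPM, *PSAT1*, of serine synthesis, from 35 to 56 CPM, and *CHAC1*, which degrades glutathione, from 2.44 to 6.84 CPM. *ATF4*, the factor that drives this response, did not pass at 0.28. Heat shock proteins had 0 called of 18 with edgeR and 0 with DESeq2, with 10 of 18 at an unadjusted p below 0.05, 3 lower and 7 higher, and among 23 p53 targets 2 were lower, 1 higher and 20 neither, with *CDKN1A*, which halts the cell cycle, falling from 320.4 to 189.6 CPM. *GSR*, glutathione reductase, rose from 153 to 248 CPM, and *BCAT1*, which transfers the amino group of branched-chain amino acids, fell from 323 to 172 CPM. Of glycolytic genes, lower members numbered 0 with DESeq2 or without control replicate 1, and higher members numbered 1 with DESeq2. Of p53 targets, lower members numbered 1 without the filter on low counts or in a fit of the 96 h samples alone, and 1 to 2 when single replicates were left out, and higher members numbered 2 without control replicate 2.

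The machinery of gene expression was nearly free of called genes. With edgeR, 0 were called of 79 cytosolic ribosomal proteins, 32 genes of ribosome biogenesis, 49 splicing factors, 31 proteasome subunits and 32 Mediator subunits, and DESeq2 gave 0 in each as well. Of Mediator subunits, lower members numbered 1 without control replicate 2, and higher members numbered 1 without control replicate 2. Of 41 translation factors, 0 were lower, 1 higher and 40 neither, the higher one being *EEF2K*, a kinase that restrains elongation, from 45.6 to 85.5 CPM. The medians of the lists without called genes were -0.04, -0.04, -0.14, -0.11 and -0.06, against -0.03 over all genes tested. An unadjusted p below 0.05 was found for 18 of 79, 11 of 32, 27 of 49, 13 of 31 and 12 of 32 members, in the same order. Of these, 16, 7, 25, 12 and 10 were below 0, such as *HNRNPU* at -0.33 and *PSMD1* at -0.27, while *RPS6*, *EEF1A1* and *MED13L* were at -0.11, -0.02 and -0.10. Respiratory chain genes had 2 lower of 72, with a median of -0.14, and the lysosome had 3 lower and 4 higher of 58. Of lysosomal genes, *CTSB*, a cathepsin, had control counts of 13987 and 13611 and counts of 8605 and 8490 after depletion, without overlap, and *PSAP* was at a log2 fold change of -0.06. Of respiratory chain genes, lower members numbered 1 without the filter on low counts or in a fit of the 96 h samples alone, and 0 to 2 when single replicates were left out.

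**Figure D5:**
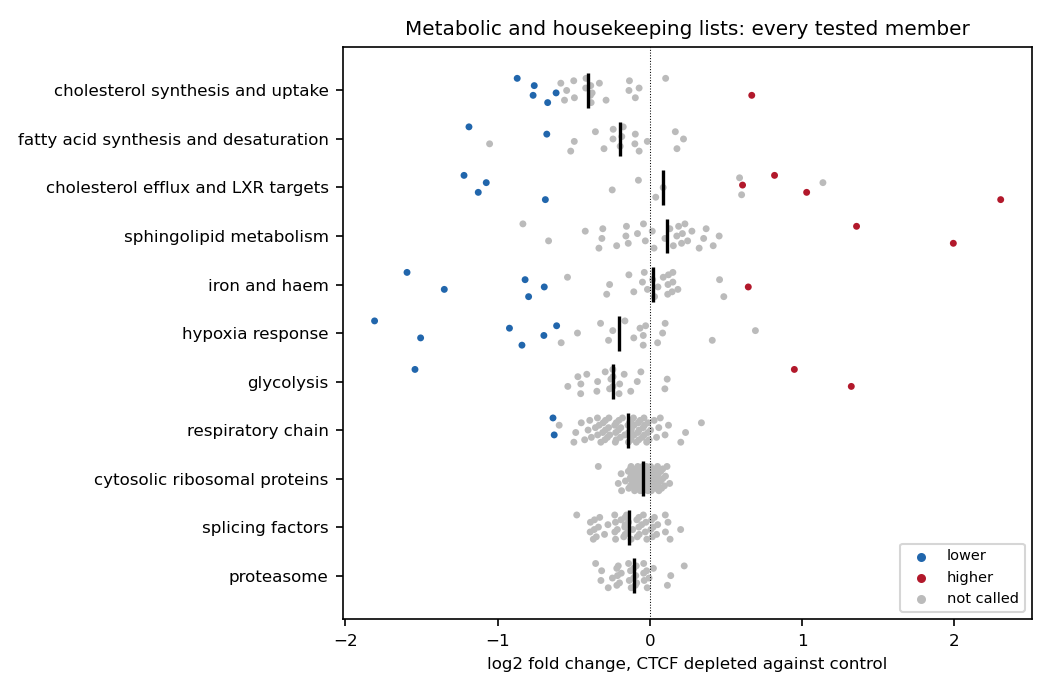
Log2 fold change of each tested member (points) of 11 metabolic and housekeeping lists, with the median of each list as a vertical line; blue points are lower, red points higher and grey points not called. The median of cholesterol synthesis and uptake lies at -0.40, and the 79 cytosolic ribosomal proteins gather around -0.04.

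Genes best known from other tissues were called on both sides. Axon guidance and adhesion genes had 6 lower and 7 higher of 42. Of axon guidance and adhesion genes, lower members numbered 3 with DESeq2, when at least 10 counts were required in every sample or without CTCF-depleted replicate 2. *NRP1*, a coreceptor for semaphorins and VEGF, had 716 and 684 counts in the control replicates against 223 and 269 after depletion, and *EFNB2*, an ephrin ligand, had 90 and 102 counts in control and 278 and 261 in depleted cells. Each separated the groups, in opposite directions. Of 43 genes of the extracellular matrix and its proteases, 5 were lower, 4 higher and 34 neither, and *FN1*, fibronectin, had control counts of 82801 and 84034 and counts of 134629 and 129320 after depletion. It measured 7545 ± 335 and 12189 ± 391 CPM (SD, n = 2 each), with an edgeR log2 fold change of 0.69, a standard error of 0.06 and an adjusted p of 7.22e-16, and *COL9A2*, a chain of collagen IX, rose from 18.7 to 63.8 CPM. Of matrix genes, lower members numbered 2 with DESeq2 or without control replicate 2, and 3 without CTCF-depleted replicate 2. Ion channels had 6 lower and 1 higher of 50, with *ITPR2*, a calcium release channel, from 184 to 114 CPM and *KCNA3*, a potassium channel of lymphocytes, from 16.6 to 7.9 CPM. Genes with a solute carrier symbol had 18 lower and 17 higher of 212, or 8.49% and 8.02%, beside 7.03% and 5.41% over all genes. A few of these are not carriers, such as the adaptor *SLC4A1AP* among the higher ones. Numbered zinc finger genes were lower and higher in 16 and 6 of 419, or 3.82% and 1.43%. Of solute carrier symbols, lower members numbered 10 with DESeq2. Of zinc finger genes, lower members numbered 9 with DESeq2, 7 without control replicate 2, and 10 without CTCF-depleted replicate 1. Of ion channels, higher members numbered 0 when at least 10 counts were required in every sample, and 2 without control replicate 1.

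ATP-binding cassette transporters were higher in 7 and lower in 1 of 30 cases, with a median of 0.26. Of these transporters, higher members numbered 4 without control replicate 2. *ABCA5*, a lysosomal transporter, had 73 and 54 counts in the control replicates against 420 and 490 after depletion, and *ABCA10*, which lies next to it on chromosome 17, had 25 and 15 counts in control and 96 and 117 in depleted cells. The groups did not overlap in either gene, the annotated spans of the pair overlap, so that their counts are uncertain, and *ABCA2* rose from 126 to 257 CPM and *ABCA3*, a phospholipid transporter, rose from 2.57 to 10.8 CPM. When tested protein-coding genes with a RefSeq position were put in genome order, 19 runs of at least 3 neighbours were called in the same direction, the longest made of histone genes on chromosome 6. The longest without histone genes held 6 lower genes on chromosome 11, *MCAM*, *RNF26*, *USP2*, *PVRL1*, *OAF* and *TMEM136*, from 119308529 to 120333686 in GRCh38.p14. That run is not firm, as *PVRL1* lay short of the fold change threshold with RLE scaling, without the filter on low counts, in a fit of the 96 h samples alone, when at least 10 counts were required in every sample and when single replicates other than CTCF-depleted replicate 2 were left out, with -0.56 without CTCF-depleted replicate 1. *TMEM136* ended above the adjusted p threshold without control replicate 2 (0.0111) or CTCF-depleted replicate 1 (0.0146). A run of 4 higher genes on chromosome 9, from 4679569 to 5129948, held *CDC37L1*, *AK3*, *RCL1* and *JAK2*, the last being the kinase of many cytokine receptors, with control counts of 2938 and 3078 and counts of 5057 and 5137 after depletion. Of the 168 called genes named here, 26 overlap another tested gene in their annotated spans, such as *LIPA* with *IFIT5* and *KCNQ1OT1* with *KCNQ1*, and reads in the shared stretch are uncertain. The genes of these 2 runs were chosen after their values were seen, as were *TLR1* and *TLR6* as neighbours, and how often such runs arise without CTCF depletion was not tested.

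Some other families, most of them grouped by symbol, held called genes too, to be read beside 7.03% lower and 5.41% higher over all genes. Tripartite motif proteins, ubiquitin-specific proteases and apoptosis regulators had shares near or below these. Receptor-type phosphatases, which remove phosphate from tyrosines at the membrane, had 4 lower and 0 higher of 15, with a median log2 fold change of -0.34, and *PTPRF*, *PTPRK* and *PTPRM* fell from 8.44 to 2.68 CPM, from 9.93 to 3.51 CPM and from 4.4 to 0.277 CPM. Genes with GPR or ADGR symbols, most of them orphan or adhesion receptors coupled to G proteins, had 7 lower and 3 higher of 40. Tripartite motif proteins had 3 lower and 2 higher of 46, or 6.52% and 4.35%, with *TRIM9* rising from 13.6 to 42.4 CPM. Of tripartite motif proteins, lower members numbered 1 without control replicate 2, and higher members numbered 1 with DESeq2 or when at least 10 counts were required in every sample, 4 in a fit of the 96 h samples alone, and 1 to 2 when single replicates were left out. Ubiquitin-specific proteases had 2 lower and 1 higher of 47, or 4.26% and 2.13%. The higher one was *USP53*, from 28.4 to 59.3 CPM, and the lower ones included *USP2*, from 4.83 to 1.48 CPM. Of these proteases, lower members numbered 1 without the filter on low counts or in a fit of the 96 h samples alone, and 1 to 2 when single replicates were left out, and higher members numbered 2 without the filter on low counts, in a fit of the 96 h samples alone or when at least 10 counts were required in every sample. Apoptosis regulators had 2 lower, 2 higher and 22 neither of 26, or 7.69% lower and 7.69% higher. *BMF*, which promotes cell death, fell from 163 to 95.4 CPM and *BIRC2*, an inhibitor of it, rose from 45.8 to 71.5 CPM. Of apoptosis regulators, lower members numbered 1 without the filter on low counts or in a fit of the 96 h samples alone, and 1 to 2 when single replicates were left out, and higher members numbered 1 with DESeq2, without the filter on low counts, with a replicate block or when at least 10 counts were required in every sample, and 1 when any 1 of the 96 h replicates was left out. *LILRA5*, of the leukocyte immunoglobulin-like receptors, rose from 25.1 to 48 CPM, the called gene among 8 tested, which are near-identical in part, so that its counts are uncertain. Of these 8 receptors, higher members numbered 2 without the filter on low counts or in a fit of the 96 h samples alone, 0 when at least 10 counts were required in every sample, and 1 to 3 when single replicates were left out.

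Noncoding transcripts were called in both directions. Antisense RNAs were higher in 27 and lower in 9 of 238 cases with edgeR. Of antisense RNAs, lower members numbered 5 with DESeq2 or without control replicate 2, and higher members numbered 10 with DESeq2, 11 when at least 10 counts were required in every sample, 17 without control replicate 1, and 12 without control replicate 2. *ITGB2-AS1*, opposite the integrin gene *ITGB2*, had 1156 and 1074 counts in the control replicates against 1698 and 1667 after depletion, and *HNRNPU-AS1* had 2312 and 2260 counts in control and 1418 and 1420 in depleted cells. The libraries were made with a stranded kit, but the strand setting of the counting is not given. Where reads were not counted by strand, those of an antisense gene and its partner cannot be told apart, so these values are uncertain. Long intergenic RNAs had 6 lower and 9 higher of 117, or 5.13% and 7.69%, beside 7.03% and 5.41% over all genes. Small nucleolar RNAs had 2 lower and 3 higher of 216, or 0.926% and 1.39%. Of long intergenic RNAs, lower members numbered 3 with DESeq2, without control replicate 2 or without CTCF-depleted replicate 1, and higher members numbered 1 with DESeq2, 2 without control replicate 1, and 3 without control replicate 2 or without CTCF-depleted replicate 1. Of small nucleolar RNAs, lower members numbered 0 with DESeq2, and 0 to 2 when single replicates were left out, and higher members numbered 0 with DESeq2 or without control replicate 1. Among genes with a KIF symbol, nearly all of them kinesin motors, 13 were lower, 2 higher and 21 neither of 36. The higher ones were the motor *KIF3C* and the antisense RNA *KIF25-AS1*. The lower ones include *KIF22*, *KIF18B* and *KIF2C* of the mitotic spindle. Genes with replication-dependent histone symbols were lower in 46 of 51 cases, and their reads can be split between near-identical copies.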

How the data were processed

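RNA-seq libraries were prepared from total RNA depleted of ribosomal RNA, with 2 biological replicates for each of the 3 groups. The deposited table holds raw counts per gene, which the authors made by aligning reads with STAR 2.6.1d to hg38 and counting them with featureCounts 2.0.6, per the submitters' processing notes. The library kit was a stranded one, but the annotation release and the strand setting of the counting are not given in the sources used here. Symbols are as in the table, and 93.5% of the tested genes matched a gene of RefSeq for GRCh38.p14 by current or older symbol. For 2 list members, *WAPL* and *TIGAR*, the older symbols were added once the table had been seen.

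Genes were tested with edgeR 4.0.16 (R 4.3.3) by its quasi-likelihood test on the 6 samples, with TMM scaling, the filter of filterByExpr and Benjamini-Hochberg adjustment over the 14758 genes that passed it. The contrast was CTCF-depleted minus control at 96 h, and a call needed an adjusted p below 0.01 together with a log2 fold change beyond 0.6 in either direction. CPM were computed from the deposited counts with TMM-scaled totals, and totals ran from 9273470 to 12718780 counts per sample. An exact permutation test of 2 against 2 samples cannot go below a p of 0.333, so that single genes rest on the fit across genes. The fit was also run on simulated counts with known changes, but the outcome is not given here and no result rests on it. Lists were described by counts and medians, not tested. The members and lists were chosen with earlier results of these data known.

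Named genes were, for each direction, the 15 ranked first by adjusted p among called genes whose 96 h groups did not overlap. The 51 genes whose promoters were viewpoints of chromatin contact assays were left out of that ranking. The 5 called genes with the largest fold change in each direction were also named. From each list, up to 6 called members in each direction and those with the most counts that were not called could be named. Of the called ones, the text names mostly those that kept their call in every alternative fit that tested them. The markers, *CTCF* and the list of the aryl hydrocarbon receptor were named too. Alternatives were DESeq2 1.42.0, RLE scaling, other filters, a fit of the 96 h samples alone, a replicate block, other thresholds and each 96 h sample left out in turn. Where a group of the 96 h samples held 0 counts, folds were computed against 3 counts over both of its samples.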

Additional observations from a re-analysis of the deposited data

How the results depend on the processing

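The counts of 1038 lower and 798 higher genes became 721 and 560 with DESeq2, 997 and 830 with RLE scaling, 988 and 897 without a filter on low counts, 796 and 593 with at least 10 counts in every sample, and 965 and 896 in a fit of the 96 h samples alone. Leaving out single 96 h replicates gave 766 to 859 lower and 675 to 804 higher genes; a lone sample of a group was then taken to vary like the other groups. Other thresholds moved the counts more, to 3330 and 2375 at an adjusted p below 0.05 with no fold change threshold, and to 436 and 409 at an absolute log2 fold change above 1, since they admit more or fewer genes by construction.

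With the replicate block, 1033 genes were lower and 785 higher, of which 1027 and 784 were shared with the calls made without it. Replicates share a number but no stated origin. The correlations of their deviations between pairs of groups were -0.02, 0.01 and -0.03. The paired fit is therefore given as an alternative only. DESeq2 called 721 and 540 of the genes called by edgeR in the same direction.

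Of the called genes that the naming rules gave, 147 of 233 lower and 124 of 171 higher ones kept their call under each of these tools, filters, scalings and left-out samples that tested them. The text names mostly such genes, so that among the genes it names the tally is set by that choice: 84 of 87 lower and 81 of 81 higher ones kept their call, *MIR3648*, *PVRL1* and *TMEM136* being the exceptions. No value of a called gene named in the text changed sign.

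With 2 samples a group, genes with few counts were not detectable as changed at this depth unless the change was large, and the counts describe 1 subclone. Effects of IAA itself were not tested.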
